A study of Mus musculus with 4 samples.

Results

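The 7 T-cell receptor constant genes Trac, Trbc1, Trbc2, Trdc, Tcrg-C1, Tcrg-C2 and Tcrg-C4 were taken by symbol from the 31053 genes counted in single mouse T-cell progenitors. All 7 were found, each under 1 Ensembl ID, and all were described whatever their level. A further gamma constant gene, Tcrg-C3, is counted in the same tables but is not one of the 7. The cells grew from bone marrow progenitors on OP9-Dll1 stroma, which presents a Notch ligand, in medium with IL-7 and Flt3-ligand at 10 ng/ml each. The series names 2 perturbations, both with vectors added on day 2. For Runx1 overexpression, progenitors of B6.Bcl2 transgenic mice aged 8 to 10 weeks received MSCV-Runx1-mCherry or MSCV-empty-mCherry. They were harvested on day 4 or day 6 and sorted as live, Lineage-, mCherry+ and CD45+. For loss of Runx1 and Runx3, progenitors of B6.Cas9;Bcl2 transgenic mice received E42-gRunx1-hNGFR and E42-gRunx3-mTurquoise, each with 3 pairs of guides, or E42-gControl with guides against luciferase. They were harvested on day 5 or day 8 and sorted as live, Lineage-, mTurquoise+, hNGFR+ and CD45+. All groups, controls included, carried the Bcl2 transgene and were cultured, so no unmanipulated thymocyte was measured.

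Equal numbers of sorted cells were pooled into 1 mRNA library and 1 library of hashtag oligos per experiment. The labels give total culture times of 4 to 5 days for experiment 1 and 4 to 8 days for experiment 2. A hashtag is an antibody-borne DNA barcode that marks the culture a cell came from. The hashtag tables name each of their 8 columns by its oligo alone, so no hashtag could be tied to a vector or a harvest day. Hashtags were therefore treated as samples of unknown condition, no condition was read from expression, and no p-value is given. The same 8 oligos were used in both experiments, and a shared number means a shared oligo and nothing more. The oligos of the 4 hashtags at which the constant genes reached most of their highest and lowest levels were as follows.
hashtag 1: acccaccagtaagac
hashtag 2: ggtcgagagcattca
hashtag 4: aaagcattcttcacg
hashtag 7: gagtctgccagtatc

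The T-cell receptor is a pair of chains, alpha with beta or gamma with delta, and each chain ends in a constant region that anchors it in the membrane and holds it to the CD3 proteins. The variable part of each chain is assembled in the thymus by RAG-driven joining of V, D and J segments, with delta, gamma and beta rearranging before alpha. Constant regions are also transcribed before any joining, as germline transcripts that encode no receptor. A constant-gene count, read here from the 3' end of the transcript, therefore does not show that a locus has rearranged.

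On the GRCm38 build, RefSeq annotates each of the 7 as a constant-region gene segment. Trac (ENSMUSG00000076928), the alpha constant gene, lies on chromosome 14 from 54220521 to 54224198. Trdc (ENSMUSG00000104876), the delta constant gene, lies inside the same locus from 54142851 to 54146108. The beta constant genes lie on chromosome 6, Trbc1 (ENSMUSG00000076490) from 41538219 to 41539665 and Trbc2 (ENSMUSG00000076498) from 41546730 to 41548181. The gamma constant genes lie on chromosome 13: Tcrg-C1 (ENSMUSG00000076749) from 19214103 to 19216618, Tcrg-C2 (ENSMUSG00000076752) from 19305060 to 19307551 and Tcrg-C4 (ENSMUSG00000076757) from 19344558 to 19352343. Trbc1 and Trbc2 are near-identical in coding sequence, as are Tcrg-C1, Tcrg-C2 and Tcrg-C3. Counting can split or drop reads between such copies, so the levels of single copies and the shares between them are uncertain.

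Cells with at least 500 genes, under 10% mitochondrial UMIs (unique molecular identifiers, 1 per counted molecule) and 1 clear hashtag were kept. They were 8797 of 9967 barcodes in experiment 1 and 8335 of 10556 in experiment 2, with 691 to 1291 and 855 to 1312 cells per hashtag. The kept cells held 221139979 and 232564152 UMIs, with medians of 24753 and 26338 UMIs per cell. Hashtag counts separated less cleanly in experiment 2, where the median top tag had 244 counts against 12 for the next, than in experiment 1, with 1224 against 6. The libraries shared 39 barcodes, 28 of them kept in both. The labels call the cells progenitors high in Kit, the receptor for stem cell factor. A Kit UMI was found in 71.8% of kept cells in experiment 1 (56.3% to 82.8% over hashtags) and in 51.9% in experiment 2 (43.0% to 66.7%). Kit was at only 36 CPM over all kept cells of experiment 2, so a cell without a Kit UMI may still carry Kit. Surface Kit is not part of these counts. Rebuilt clusters also held granulocyte, mast, dendritic, B-lineage and stromal-like cells, 7.4% of cells in experiment 1 and 15.8% in experiment 2.

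Beta constant transcripts were the most abundant of the 7 in both experiments, gamma transcripts followed, and Trac was nearly absent outside a small set of cells. Levels are UMIs per 1000000 UMIs (CPM), which count molecules and are not changed by transcript length. Over all kept cells of experiment 1, Trbc2 reached 733 CPM, Trbc1 363, Tcrg-C1 218, Tcrg-C2 138, Tcrg-C4 42.4, Trdc 37.5 and Trac 0.543. Experiment 2 had the same order from Trbc2 to Tcrg-C2, at 705, 417, 182 and 132 CPM, and Tcrg-C4 at 67.0, Trdc at 63.0 and Trac at 8.13. The 7 genes together took 1532 CPM in experiment 1 and 1573 CPM in experiment 2. Most of the cells carried at least one constant-gene UMI, 97.1% in experiment 1 and 91.3% in experiment 2. With every cell thinned to 5000 UMIs the shares were 91.3% and 82.7%, after 195 and 185 shallower cells were left out (11 to 32 and 11 to 48 per hashtag).

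**Figure D1:**
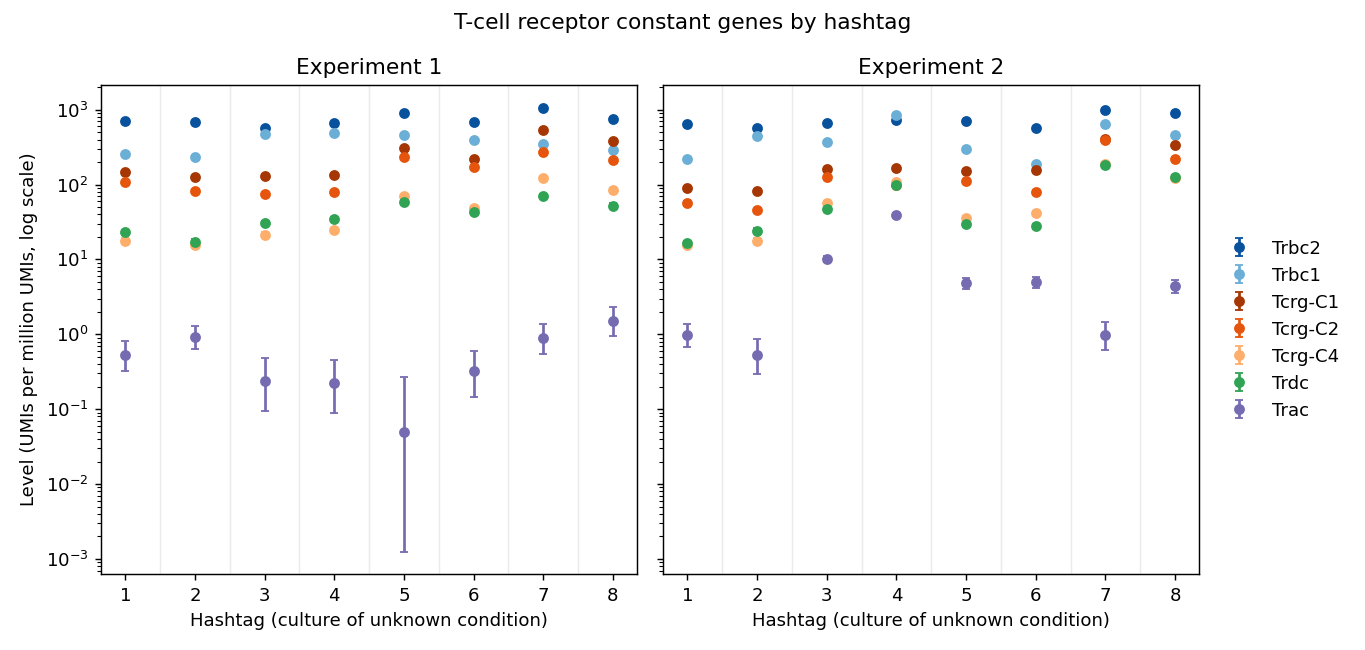
Level of each constant gene (CPM, log axis) in each of the 8 hashtags of experiment 1 and of experiment 2, with exact 95% Poisson intervals for counting error. The highest Trbc2 hashtag is 1.85 and 1.77 times the lowest, the highest Tcrg-C4 hashtag 7.72 and 12.4 times the lowest, and Trac stands apart in hashtag 4 of experiment 2.

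Trbc2, the more 3' of the beta constant genes, varied least between hashtags when all kept cells were summed. Its levels in hashtags 1 to 8 of experiment 1 were 704, 676, 576, 663, 893, 693, 1068 and 762 CPM. In experiment 2 they were 640.1, 569, 663, 726, 698, 562, 996 and 910 CPM. Hashtag 7 was highest in both experiments, and the ratio of the highest to the lowest hashtag was 1.85 (exact 95% interval 1.82 to 1.89) and 1.77 (1.74 to 1.81). These and all intervals below cover counting error only, not variation between cultures, and p-values could not be given because each experiment was 1 library with no labelled groups. Trbc2 was the constant gene found in the most cells, 86% in experiment 1 (83.0% to 90.1% over hashtags) and 79.2% in experiment 2 (71.3% to 89.3%). Neighbours in this order were taken as not separated where the exact 95% interval of the ratio of their levels included 1, which held for hashtags 6 and 1 of experiment 1 and hashtags 6 and 2 of experiment 2.

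Trbc1, the other beta constant gene, followed a different order of hashtags. Its levels in hashtags 1 to 8 of experiment 1 were 258, 230.1, 469.9, 492, 459, 398, 353 and 294 CPM, with hashtags 3, 4 and 5 high and hashtags 1 and 2 low. In experiment 2 they were 220.0, 452, 369, 843, 297, 187, 640.4 and 458 CPM, with hashtag 4 far above the rest and hashtags 6 and 1 lowest. The ratio of highest to lowest was 2.14 (2.08 to 2.20) and 4.51 (4.37 to 4.65). Across the 8 hashtags, the log2 levels of Trbc1 and Trbc2 had a Pearson r of -0.0466 in experiment 1 and 0.587 in experiment 2, a description over 8 pooled cultures that share a library. By the interval of their ratio, the neighbours 5 and 3 of experiment 1 and the neighbours 2 and 8 of experiment 2 were not separated.

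The gamma constant genes, which serve receptors of gamma/delta T cells, differed between hashtags more than the beta genes did. Tcrg-C1 stood at 148, 124, 129, 135, 308, 218, 536 and 382 CPM in hashtags 1 to 8 of experiment 1, and at 89.7, 81.8, 163, 166, 151, 156, 409 and 333 CPM in experiment 2. Hashtags 7 and 8 were highest in both experiments, and the highest was 4.31 times the lowest (4.17 to 4.46) and 5.01 times (4.78 to 5.24). The ratio of neighbours had an interval that included 1 for hashtags 2 and 3 of experiment 1, and for 5 and 6 and for 3 and 4 of experiment 2. Tcrg-C2 ranged from 74.3 CPM in hashtag 3 to 273 in hashtag 7 of experiment 1 (median 139, ratio 3.67, interval 3.50 to 3.86). In experiment 2 it ranged from 45.2 CPM in hashtag 2 to 397 in hashtag 7 (median 104, ratio 8.79, interval 8.29 to 9.32). Hashtag 7 decided much of that range, since without it the ratio of Tcrg-C2 in experiment 2 was 4.79.

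Tcrg-C4, the most distant in sequence of the gamma constant genes, had the widest range of the 6 genes other than Trac. In hashtags 1 to 8 of experiment 1 it stood at 17.8, 15.8, 21.5, 24.9, 69.5, 48.3, 122 and 84.2 CPM. In experiment 2 it stood at 15.4, 17.9, 56.1, 107, 36.1, 42.0, 191 and 122 CPM. Hashtags 1 and 2 were lowest and hashtag 7 was highest in both experiments, with a ratio of 7.72 (7.05 to 8.46) and 12.4 (11.4 to 13.6). Without hashtag 7 the ratio in experiment 2 was 7.95. The ratio of neighbouring hashtags of Tcrg-C4 had an interval above 1 for every pair in both experiments, although the intervals of the levels themselves overlapped for 2 pairs in experiment 1 and 1 pair in experiment 2.

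Trdc, the single delta constant gene, followed an order of hashtags close to that of Tcrg-C4. Its levels in hashtags 1 to 8 of experiment 1 were 23.5, 17.3, 30.8, 34.5, 59.0, 43.1, 71.4 and 52.3 CPM. In experiment 2 they were 16.3, 24.0, 47.8, 97.9, 29.8, 27.8, 185 and 128 CPM. Hashtag 7 was highest in both, and the highest was 4.13 times the lowest (3.76 to 4.53) and 11.4 times (10.4 to 12.4). Trdc and Tcrg-C4 had a Pearson r of 0.955 and 0.974 over the 8 hashtags of the 2 experiments. In hashtag 7 of experiment 2 a Trdc UMI was present in 76.1% of cells, against a median of 36.4% over hashtags and 18.7% in the lowest.

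Trac, whose transcript is known to appear late in thymocyte development, was close to the limit of counting in experiment 1. The 8 hashtags held 120 Trac UMIs in all, between 0.0488 and 1.52 CPM with a median of 0.422, and the lowest and highest hashtags rest on 1 and 22 UMIs. None of the 7 neighbouring pairs of hashtags in that order could be separated by the interval of their ratio. In experiment 2 Trac had 1890 UMIs, at 0.992, 0.530, 10.2, 38.8, 4.79, 4.94, 0.977 and 4.36 CPM in hashtags 1 to 8. Hashtag 4 was highest and hashtag 3 next, and the highest was 73.3 times the lowest (44.3 to 132, from 1015 and 15 UMIs). Without hashtag 4 that ratio was 19.3, and a Trac UMI was found in 10.3% of the cells of hashtag 4 against a median of 2.09% over hashtags.

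A gene was counted as spread between hashtags where its mean was at least 5 CPM and its highest hashtag was at least 2 times its lowest. In experiment 1, 6 of the 7 constant genes passed 5 CPM and 5 were spread in this sense, all but Trbc2, against 10.8% of the 8775 genes that passed. In experiment 2 all 7 passed and 6 were spread, again all but Trbc2, against 17.4% of 8784 genes. The median ratio of the members that passed was 3.90 and 8.79, and that of all genes was 1.31 and 1.38. In cells with 2 or more Il2ra UMIs only, a setting chosen after the data were seen, the order of the beta genes was reversed in experiment 1 but not in experiment 2. In these cells the ratio was 1.66 for Trbc1 and 1.97 for Trbc2 in experiment 1, so 4 genes were spread. In experiment 2 it was 2.25 and 2.03, and all 7 were spread. Without hashtag 2 of experiment 1 the ratio of Trbc1 was 1.91 and the count was 4, and without hashtag 4 of experiment 2 the mean of Trac was under 5 CPM and the count was 5.

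The balance between loci and between copies of a locus moved with these levels. Of the beta UMIs in experiment 1, 33.1% were Trbc1, from 24.8% in hashtag 7 to 44.9% in hashtag 3, with hashtag 4 at 42.6%. In experiment 2 the Trbc1 share ran from 25.0% in hashtag 6 to 53.7% in hashtag 4, with a median of 34.6%, so hashtag 4 was the one hashtag with more Trbc1 than Trbc2. Of the gamma UMIs, Tcrg-C4 made up 6.51% in hashtag 1 to 13.1% in hashtag 7 of experiment 1 and 9.45% in hashtag 1 to 28.9% in hashtag 4 of experiment 2. Hashtag 4 of experiment 2 thus had the highest Tcrg-C4 share and the lowest Tcrg-C2 share, 26.4%, while hashtag 7 had the highest Tcrg-C2 share, 39.8%. Tcrg-C3 was at most 0.391% of gamma UMIs in any hashtag. The beta genes made up 58.6% to 80.9% of the UMIs of the 7 genes in experiment 1 and 58.0% to 85.8% in experiment 2, and hashtag 7 had the lowest beta share in both.

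**Figure D2:**
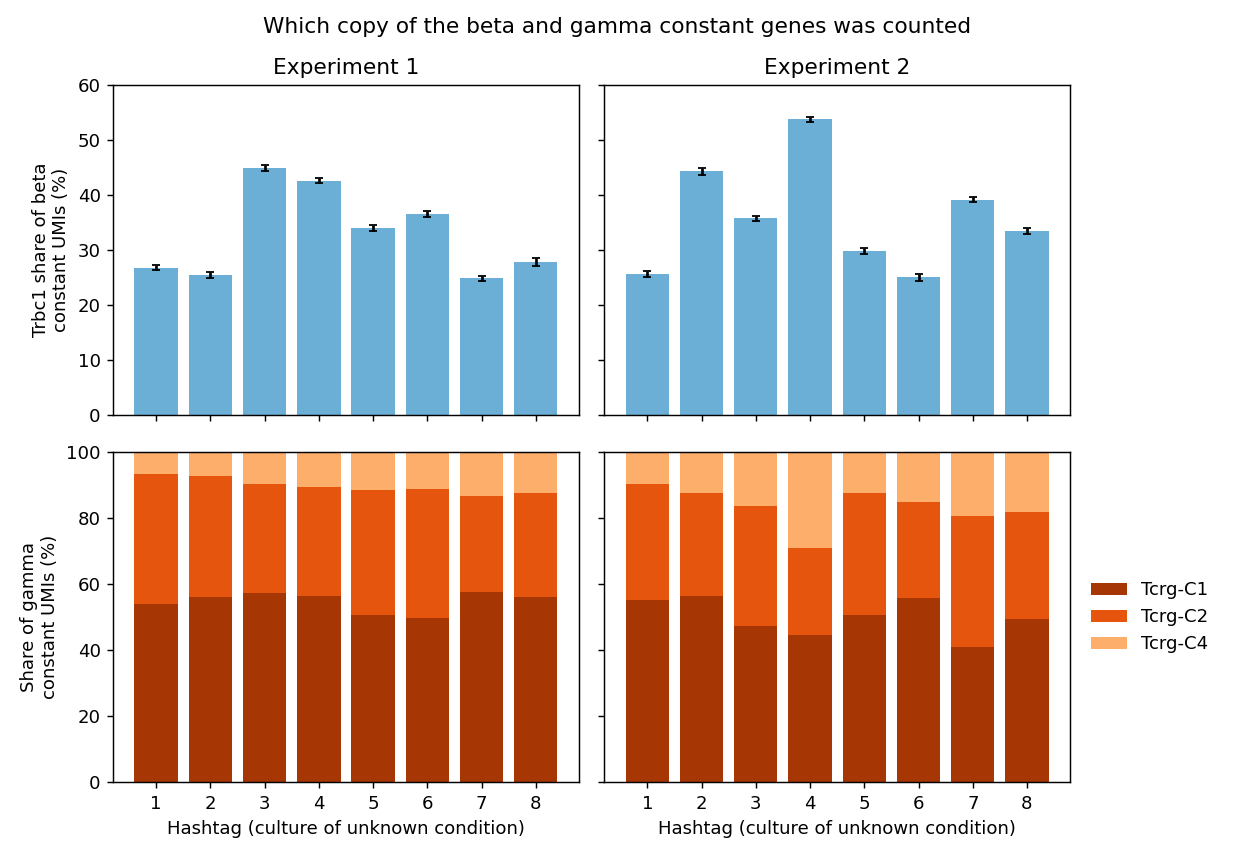
Top: Trbc1 as percent of the beta constant UMIs of each hashtag with exact 95% binomial intervals, and bottom: Tcrg-C1, Tcrg-C2 and Tcrg-C4 as percent of gamma constant UMIs, for both experiments. Trbc1 passes 50% in hashtag 4 of experiment 2 alone (53.7%), where the Tcrg-C4 part is also largest (28.9%).

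V, D and J segments, which lie at the 5' end of a spliced receptor transcript, gave far fewer UMIs than the constant genes. Of 260 V, D and J segment rows, 42 had a UMI in experiment 1 and 61 in experiment 2, with 1184 and 1851 UMIs in all. That is 286 and 198 constant-gene UMIs for each segment UMI. The segments with the most UMIs were Trbv12-2 with 353 and 382, Trgv2 with 105 and 582, Trbv13-2 with 355 and 249, Tcrg-V1 with 95 and 170, and Trav6-7-dv9 with 35 and 104. Trgv2 had its highest level, 11.01 CPM, in hashtag 7 of experiment 2, the hashtag where Tcrg-C1, Tcrg-C2, Tcrg-C4 and Trdc were also highest. A UMI on a segment can come from a germline transcript, so these counts do not show rearrangement.

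The partners of the receptor chains were spread between hashtags too, read against the same 10.8% and 17.4% of all genes. Of the CD3 chains, which carry the receptor's signal, Cd3d, Cd3g and Cd247 were spread in experiment 1 (3 of 3 that passed 5 CPM) and all 4 with Cd3e in experiment 2. Cd3g ran from 13.5 CPM in hashtag 2 to 194 in hashtag 4 of experiment 1 and from 20.9 in hashtag 1 to 743 in hashtag 4 of experiment 2, so its highest hashtag was that of Trbc1. Of the recombination and pre-receptor genes, Rag2 and Dntt (2 of 2) were spread in experiment 1 and Rag1, Rag2 and Dntt (3 of 3) in experiment 2. Dntt, the polymerase that adds untemplated bases at joints, ran from 6.16 CPM in hashtag 4 to 111 in hashtag 7 of experiment 1 and peaked at 246 in hashtag 7 of experiment 2. Its highest hashtag was that of the gamma and delta constant genes, and in experiment 1 its lowest was the highest of Trbc1. Ptcra, the partner of the beta chain before alpha is made, stayed under 5 CPM in both experiments.

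Among signalling genes Lck and Lat (2 of 5 that passed) were spread in experiment 1, and both were spread in experiment 2 as well. Among coreceptors and costimulatory genes Thy1 (1 of 2) was spread in experiment 1 and Cd8a, Cd8b1, Cd28, Cd2 and Thy1 (5 of 6) in experiment 2. Cd8a ran from 0.247 to 42.2 CPM in experiment 2 with hashtag 4 highest, as Trac did, while Cd4 had 17 and 14 UMIs in all. Of the regulators of the receptor loci 10 of 17 were spread in experiment 1 and 12 of 17 in experiment 2. Bcl11b, a factor of T-lineage commitment, was highest in hashtag 4 of both experiments, at 35.0 and 129 CPM, as Trbc1 was. Il7r, the receptor for IL-7, which is known to open the gamma locus, was highest in hashtag 7 of both, at 34.7 and 45.5 CPM, as Tcrg-C1 was. Runx1 was highest in hashtag 7 of experiment 1, at 241 CPM, and in hashtag 8 of experiment 2, at 121 CPM, and the counts do not separate vector from endogenous transcripts. Of the progenitor list, which includes Il2ra, 3 of 7 genes were spread in experiment 1 and 6 of 7 in experiment 2.

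The genes most like each constant gene over hashtags were ranked by the lower of the Pearson r of the 2 experiments, on log2(CPM + 1) over 8 hashtags each and among 8471 genes. These values are descriptions, and the 8 hashtags of an experiment share a library and its depth. Trbc1 was most like Ncbp3 (0.982 and 0.982), Fam169b (0.974 and 0.974), Tcf12 (0.981 and 0.969), Bcl11b (0.986 and 0.961) and Gimap1 (0.959 and 0.954). Trbc2 was most like Trp53i11 (0.959 and 0.965), Tbca, Stat4, Gstp1 and Yaf2, with values as low as 0.592 once the 2 farthest hashtags were left out. Tcrg-C1 was most like Mllt3 (0.992 and 0.978), Il7r (0.975 and 0.987), Kbtbd11, Lrp12 and Tcrg-C2 (0.961 and 0.974). Bcl11b was thus among the genes closest to Trbc1, and Il7r among those closest to Tcrg-C1.

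Tcrg-C2 was most like Akr1c13 (0.992 and 0.989), Mpp1, Il2ra (0.966 and 0.979), Cndp2 and Tcrg-C1. Tcrg-C4 was most like Sh3glb2 (0.983 and 0.976), Ets1 (0.973 and 0.978), Mllt3, Saraf and Jund. Trdc shared Sh3glb2 (0.971 and 0.992) with Tcrg-C4, followed by Trat1 (0.970 and 0.973), Rras2, Fam20a and Sept1. For Trac the leading values were lower, with Irf9 (0.777 and 0.788), Slfn8, Wdr81, Trim34a and AW112010. Its levels in experiment 1 rest on 120 UMIs, so these values and the genes they rank are uncertain. Without the 2 farthest hashtags Wdr81 was at 0.373 in experiment 1.

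Cells of each experiment were clustered without any receptor segment or constant gene, giving 12 and 16 clusters, which were named from markers only where at least 3 led them. Names were rebuilt here, no doublet caller was run beyond the removal of cells with 2 hashtags, and other clustering settings move the borders. In the T-lineage-like cluster of experiment 1 (1165 cells, led by Thy1, Il2ra, Cd3g and Tcf7) the gamma and delta genes stood high. Tcrg-C1 was at 550 CPM there, Tcrg-C2 at 391, Tcrg-C4 at 122 and Trdc at 99.9, beside Trbc1 at 502 and Trbc2 at 1089. Progenitor-like cells of experiment 1 (Cd34, Lmo2 and Mef2c high) held less of the beta genes, with Trbc2 at 675 CPM and Trbc1 at 263 CPM. Their Tcrg-C1 was at 42.6 CPM, Tcrg-C2 at 23.4, Tcrg-C4 at 7.25 and Trdc at 7.25, lower by far than in the T-lineage-like cluster. These low levels depend on the clustering, since with 3000 variable genes in place of 2000 the progenitor-like class had Tcrg-C1 at 13.7 CPM, Tcrg-C2 at 6.39 and Trdc at 2.35, while Trbc2 stayed at 653. In the progenitor-like cluster of experiment 2 (604 cells) Trbc2 was at 597 CPM, Trbc1 at 114, Tcrg-C1 at 38.5 and Trdc at 3.71, with Trbc1 at 233 at a finer clustering.

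Experiment 2 split its T-lineage-like cells into clusters with different constant genes. The larger (1477 cells, 628 of them in hashtag 7 and 314 in hashtag 8) had Tcrg-C1 at 656 CPM, Tcrg-C2 at 500.0, Tcrg-C4 at 238, Trdc at 254, Trbc1 at 680 and Trbc2 at 1235. The smaller (580 cells, 476 of them in hashtag 4 and 99 in hashtag 2, led by Themis and Bcl11b) had Trbc1 at 1457 CPM and Trbc2 at 797, with Tcrg-C1 at 362, Tcrg-C2 at 184, Tcrg-C4 at 214 and Trdc at 213. It thus had more Trbc1 than Trbc2, and most of its cells came from hashtag 4, the hashtag with that balance. Of the other clusters, the innate lymphoid-like one had the pair nearly equal (996 and 985 CPM), and the mast or basophil-like one had Trbc1 at 80.5 and Trbc2 at 43.9 CPM. In experiment 1, hashtags 3 and 4 filled an unnamed cluster of 867 cells led by Pgam2, Gsn and Zbtb16 (433 and 430 cells), where Trbc1 was at 593 CPM and Trbc2 at 674. Because a cluster of one or a few hashtags may reflect those cultures, cluster and hashtag cannot be told apart there.

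Cells with genes of innate lymphocytes also held gamma and beta constant transcripts. In the innate lymphoid-like cluster of experiment 2 (212 cells with Ncr1, Klrd1 and Il2rb) Tcrg-C1 was at 558 CPM, Tcrg-C4 at 259, Tcrg-C2 at 159, Trdc at 138, Trbc1 at 996 and Trbc2 at 985. An unnamed cluster of 235 cells in experiment 1, led by Klrk1, Il2rb and Xcl1, had Tcrg-C1 at 673 CPM, Tcrg-C2 at 216, Tcrg-C4 at 192, Trbc1 at 781 and Trac at 20.7. Its Trac level rests largely on 5 cells with 5 or more Trac UMIs, which held 66 Trac UMIs. These 5 cells had Cd8a at 393 CPM and Cd8b1 at 487, so the Trac level does not describe the cluster as a whole. Both clusters had Tcrg-C1 well above Tcrg-C2, while the T-lineage-like cells of the same experiments had the pair closer together.

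Cells of other lineages, which make no T-cell receptor, were measured the same way for comparison. The source of their constant-gene UMIs was not tested. In granulocyte or monocyte-like cells of experiment 1 (524 cells, median 32614 UMIs, against 24753 over all cells) Trbc2 was at 115 CPM, Trbc1 at 25.1, Tcrg-C1 at 5.23, Tcrg-C2 at 3.26, Trdc at 1.07 and Tcrg-C4 at 0.899. A Trbc2 UMI was found in 59.0% of these cells, a Trbc1 UMI in 34.7%, a Tcrg-C1 UMI in 13.2% and a Trdc UMI in 3.05%. In experiment 2 the same class (334 cells, median 28573 UMIs) had Trbc2 in 26.0% of cells, Trbc1 in 26.3%, Tcrg-C1 in 12.9%, Tcrg-C2 in 6.59%, Trdc in 7.19% and Trac in 1.497%. Trbc2 was not at the same level in every such class, since 26.1% of the mast or basophil-like cells of experiment 1 had a UMI, and a finer clustering put the granulocyte or monocyte-like class of experiment 1 at 45.4 CPM. Stromal-like cells held more of Trbc1 and Trbc2 than granulocyte or monocyte-like cells did. In experiment 2 (212 cells, median 49939.5 UMIs) they had Trbc2 at 163 CPM in 61.3% of cells and Trbc1 at 85.4 CPM in 57.1%. The 16 stromal-like cells of experiment 1 had Trbc2 at 389 CPM. The shares over all cells were above those of the granulocyte or monocyte-like cells for all 7 genes in both experiments, but barely so for Trac in experiment 1. There a Trac UMI was found in 0.614% of all cells and in 0.573% of granulocyte or monocyte-like cells (exact interval 0.118% to 1.66%). That interval is too wide to tell the share over all cells from that of the granulocyte or monocyte-like cells. As described below, 5 cells held 55% of the Trac UMIs of experiment 1.

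**Figure D3:**
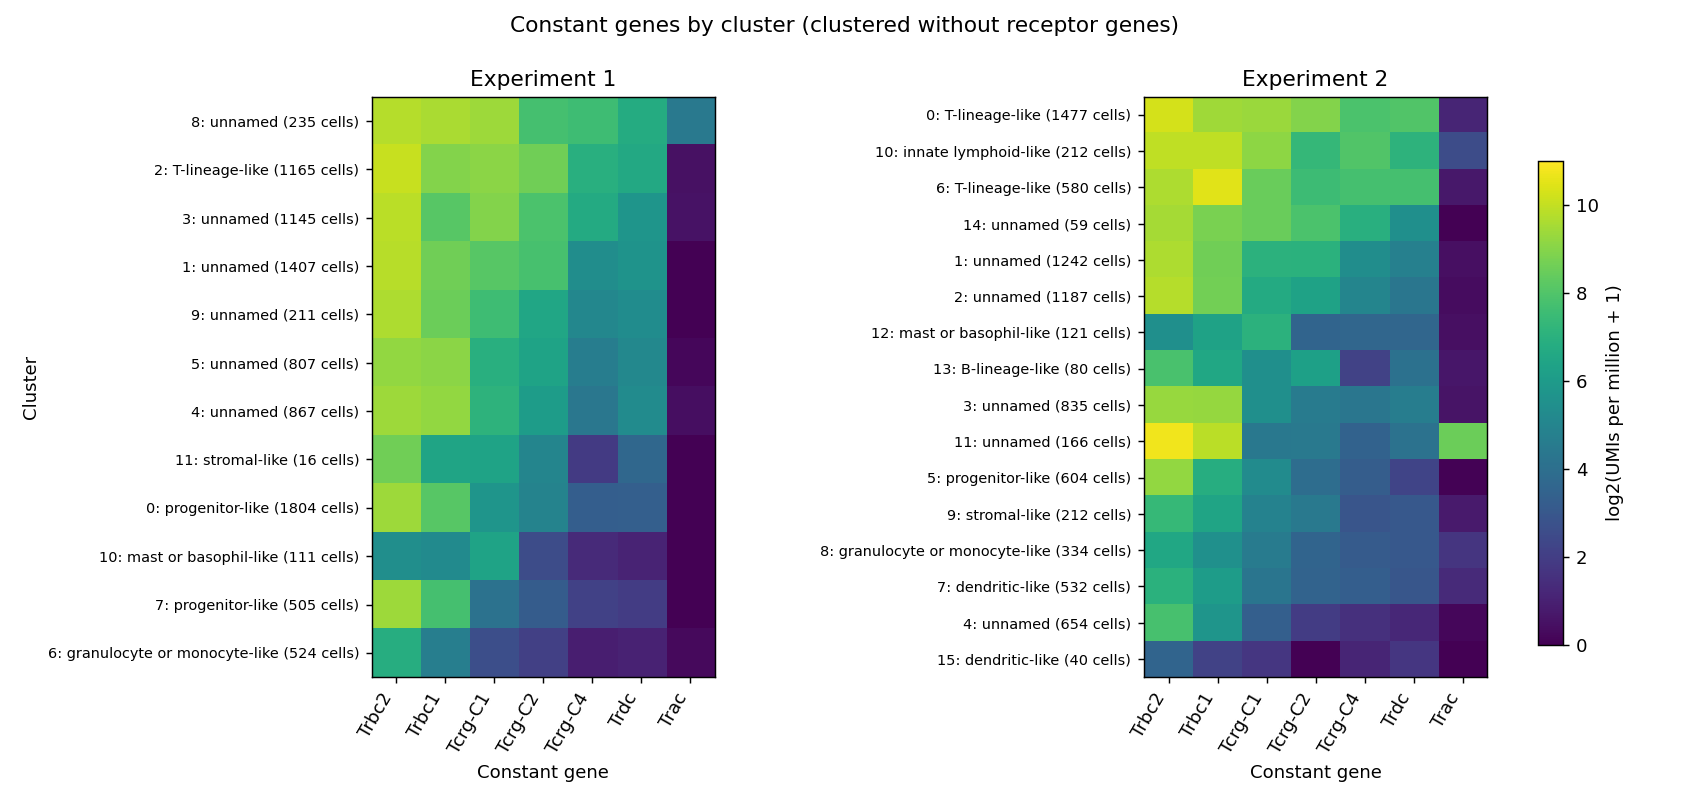
Level of each constant gene (colour, log2 of CPM + 1) in each cluster of experiment 1 and experiment 2, with the class name and the number of cells. Trbc2 is present in progenitor-like clusters in which Tcrg-C2, Tcrg-C4 and Trdc are low, and Trac is high in 1 cluster of 166 cells of experiment 2.

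The other lineages took different shares of the hashtags, from 3.54% of cells in hashtag 4 to 14.0% in hashtag 2 of experiment 1 and from 8.36% in hashtag 7 to 28.5% in hashtag 6 of experiment 2. With these cells left out, a setting chosen after the data were seen, the ratios of highest to lowest hashtag in experiment 1 were 1.90 for Trbc1, 1.86 for Trbc2, 3.68 for Trdc, 4.16 for Tcrg-C1, 3.68 for Tcrg-C2 and 6.90 for Tcrg-C4. The count of spread genes in experiment 1 was then 4, because Trbc1 was under 2. In experiment 2 the ratios were 3.97 for Trbc1, 1.62 for Trbc2, 10.6 for Trdc, 4.66 for Tcrg-C1, 8.15 for Tcrg-C2, 11.7 for Tcrg-C4 and 78.9 for Trac, with the count still at 6. T-lineage-like cells also took different shares, from 3.98% in hashtag 3 to 31.4% in hashtag 5 of experiment 1 and from 5.99% in hashtag 1 to 61.9% in hashtag 7 of experiment 2. A level summed over a hashtag cannot tell more cells of a type from more RNA per cell.

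Kit and Il2ra, the receptor subunit that marks the step from the first to the next double-negative stage, were used to follow the constant genes within a hashtag. A cell was positive at 2 or more UMIs and negative at 0. In experiment 1 the gates held 1416 cells with Kit alone, 2201 with both, 1273 with Il2ra alone and 976 with neither, and in experiment 2 they held 1074, 904, 1452 and 2280. In cells with Kit alone, the median hashtag of experiment 1 had Tcrg-C2 at 12.4 CPM, Tcrg-C1 at 35.7, Tcrg-C4 at 8.07 and Trdc at 5.55. In cells with both Kit and Il2ra the same genes stood at 208, 252, 42.1 and 44.8 CPM, and with Il2ra alone at 291, 413, 78.6 and 77.8 CPM. All 4 gamma and delta genes were thus higher from gate to gate in that order, and so they were in experiment 2, where Tcrg-C2 stood at 10.97, 192 and 338 CPM and Trdc at 4.51, 68.8 and 143 CPM.

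The beta genes were present in cells with Kit alone and differed less between the gates. The gates compare different cells, with the other lineages not removed, and no order in time was measured. In the median hashtag of experiment 1, Trbc1 stood at 259, 450.0 and 490.2 CPM and Trbc2 at 563, 882 and 906 CPM in cells with Kit alone, both and Il2ra alone. Taken within each hashtag, cells with both had a median of 17.6 times the Tcrg-C2 level of cells with Kit alone (7.60 to 56.3, at least 2-fold in 16 of 16 hashtags). For Tcrg-C1 it was 8.21 times (2.98 to 27.4, 16 of 16) and for Tcrg-C4 7.27 times (2.03 to 33.7, 16 of 16). For Trdc it was 6.74 times (2.23 to 34.8) in the 13 hashtags with enough UMIs, all of them at least 2-fold. For Trbc1 it was 1.61 times (1.07 to 5.97, at least 2-fold in 5 of 16) and for Trbc2 1.46 times (0.871 to 3.39, 3 of 16). From cells with both to cells with Il2ra alone, the median ratio was 1.67 for Trdc, 1.66 for Tcrg-C4, 1.57 for Tcrg-C1, 1.51 for Tcrg-C2, 1.12 for Trbc1 and 1.08 for Trbc2. Depth per cell was lower with Il2ra alone, at a median of 21170 UMIs in experiment 1 against 26840 with both, and its part in these ratios was not tested.

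**Figure D4:**
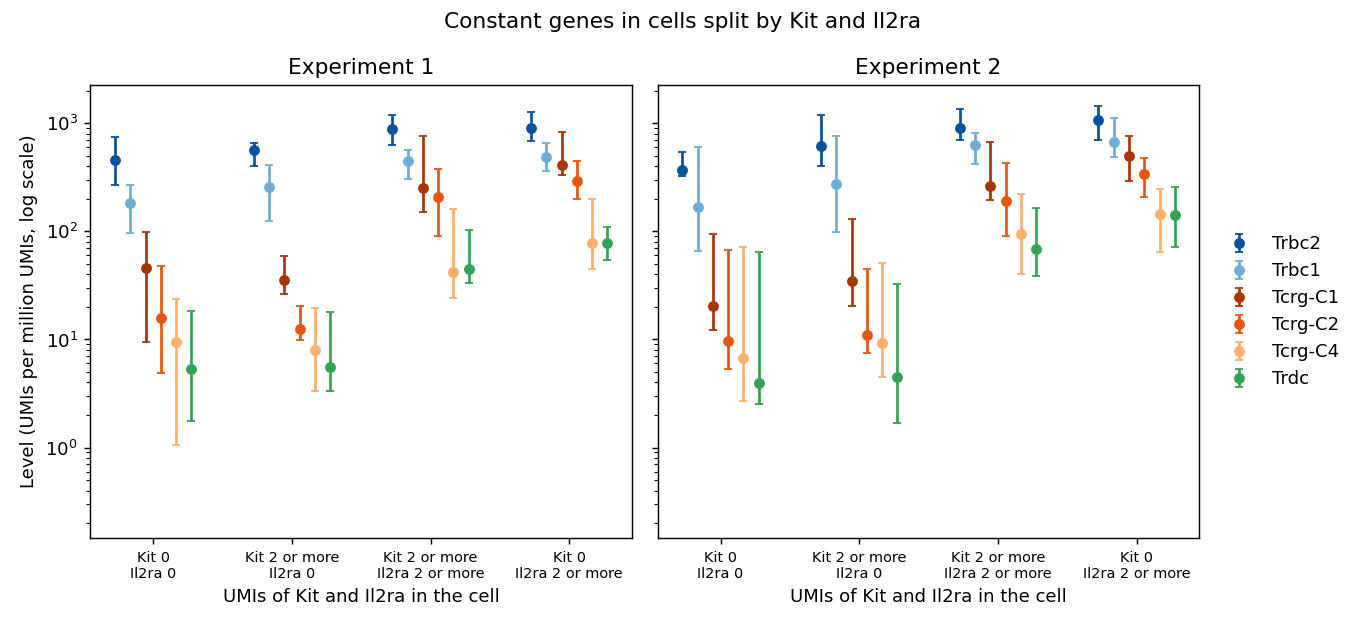
Level of 6 constant genes (CPM, log axis) in cells split by their Kit and Il2ra UMIs, with the median over hashtags as a point and the lowest to highest hashtag as a bar, for both experiments. Tcrg-C2, Tcrg-C1, Tcrg-C4 and Trdc step up from cells with Kit alone to cells with both, by median ratios of 17.6, 8.21, 7.27 and 6.74, and the beta genes step up by 1.61 and 1.46.

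Other gates, chosen after the data were seen, set Trbc1 apart from Trbc2. Cells with at least 2 Bcl11b UMIs, compared with cells with none in 15 hashtags, had a median of 4.27 times the Trdc level, 4.27 times the Tcrg-C4 level, 3.84 times the Tcrg-C2 level and 3.51 times the Tcrg-C1 level. Trbc1 was 2.59 times as high in them and Trbc2 1.58 times. Cells with Zbtb16, the factor of innate-like lymphocytes, had 1.63 times the Trbc1 level in the median of 8 hashtags and were above 1 in all 8, while Trbc2 stood at 1.02 times.

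Within cells, the gamma and delta constant genes were found together, and each beta gene was found in more cells than any of these. In cells thinned to 5000 UMIs, Trbc2 was found in 76.15% of experiment 1 and 68.9% of experiment 2, and Trbc1 in 60.3% and 57.0%. After thinning to 5000 UMIs, 64.3% of the Tcrg-C1-positive cells of experiment 1 also had a Tcrg-C2 UMI, against 11.5% of Tcrg-C1-negative cells. In experiment 2 the shares were 65.7% and 9.31%. Inside single hashtags the ratio of these shares was 3.23 to 8.15 in experiment 1 and 2.14 to 14.6 in experiment 2, above 1 in every hashtag. Trdc was found in 29.6% of Tcrg-C1-positive and 7.51% of negative cells of experiment 1 and in 42.2% and 8.08% in experiment 2. Trdc was also found in 36.1% of Tcrg-C4-positive and 12.2% of negative cells of experiment 1, and in 49.5% and 11.1% in experiment 2. For the beta pair the shares were closer, with Trbc2 in 79.3% of Trbc1-positive and 71.3% of negative cells of experiment 1 and in 80.4% and 53.8% in experiment 2. Cells with 4 or more of the 7 genes made up 24.1% of experiment 1 (11.01% to 44.7% over hashtags) and 26.6% of experiment 2 (9.22% to 67.3%).

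**Figure D5:**
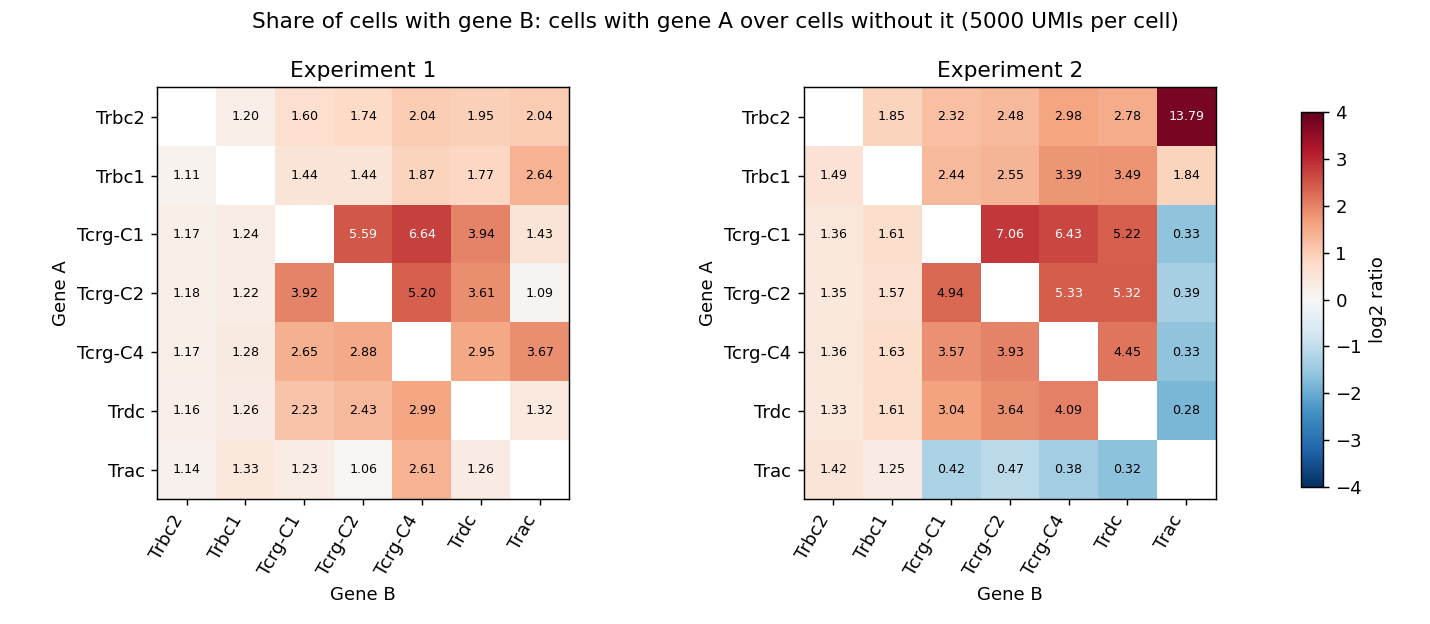
Ratio of the share of cells with a UMI of one constant gene in cells with and without a UMI of another, after thinning each cell to 5000 UMIs (numbers, with log2 ratio as colour, both experiments). Tcrg-C1 with Tcrg-C2 gives 5.59 and 7.06, and in experiment 2, pooled over hashtags, Trac gives ratios under 1 with each gamma and delta constant gene, 0.322 with Trdc.

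Over all cells of experiment 2, Trac went the other way. Of the 158 thinned cells with a Trac UMI, 6.33% had Trdc against 19.6% of the other cells, 13.9% had Tcrg-C1 against 33.5%, and 96.8% had Trbc2 against 68.4%. With all UMIs in place of thinned cells the ratios of Trac with Trdc and with Tcrg-C1 were 0.743 and 0.750. Inside hashtags the direction did not hold with all UMIs, since Trac with Trdc gave 0.197 to 1.55 in the 4 hashtags with enough cells, with a median of 1.14 and 2 of 4 above 1. With thinned cells only 2 hashtags had enough cells, and both were under 1 (0.0363 and 0.355). In experiment 1 the 15 thinned Trac-positive cells are too few for such a ratio.

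Most Trac UMIs came from few cells. Cells with 5 or more Trac UMIs, a limit chosen after the data were seen, numbered 142 in experiment 2 and held 89.9% of its Trac UMIs. Of these, 89 were in hashtag 4 and 32 in hashtag 3, and 137 fell in a single unnamed cluster of 166 cells led by Gzmc, Cd8b1, Ifng, Xcl1 and Cd8a. In the 142 cells Trac, by which they were chosen, was at 375 CPM against 0.838 in all other cells. That gap follows from the choice. Trbc2 was at 1698 CPM and Trbc1 at 871 in the 142 cells, against 686 and 408 CPM in other cells. The gamma and delta genes of the 142 cells were low. Trdc was at 16.8 CPM against 63.9 in other cells and Tcrg-C1 at 22.5 against 185. Tcrg-C2 was at 23.9 against 134 and Tcrg-C4 at 9.72 against 68.2.

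Genes known from mature CD8 T cells were high beside Trac in these cells. Cd3d was at 730 CPM against 46.7 in other cells and Cd3e at 214 against 6.04. Cd8a was found in 96.5% of the 142 cells and Cd8b1 in 93.7%, and Cd4 had no UMI. Gzmc, a granzyme of cytotoxic cells, was found in 66.2% of them, at 2687 CPM. Rag1 was at 0.883 CPM, Ptcra at 1.77 and Kit at 10.8, against 4.53, 3.65 and 36.5 CPM in other cells. Il2ra and Bcl11b were near the level of other cells, at 139 against 149 CPM and 28.0 against 29.4 CPM. An Il2ra UMI was found in 64.8% of the 142 cells against 46.3%, and a Bcl11b UMI in 46.5% against 23.0%. Alpha V and J segments were at 7.07 CPM against 0.803. Experiment 1 had 5 such cells, which held 55.0% of its 120 Trac UMIs and all fell in the unnamed cluster led by Klrk1 and Il2rb. A Kit UMI was found in 20.4% of the 142 cells and in 52.4% of the other cells of experiment 2. With their Cd8a and Cd8b1 UMIs, the 142 cells go against the labelled stage, although the levels of Il2ra and Bcl11b did not set them apart.

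Between the experiments no constant gene that passed 5 CPM (0 of 6) differed 2-fold. Of 8770 genes, 1.86% were at least 2-fold higher and 0.342% at least 2-fold lower in experiment 2. With so few genes called, 0 of 6 does not set the constant genes apart from other genes. Trdc was 1.68 times as high in experiment 2 (1.64 to 1.73) and Tcrg-C4 1.58 times (1.54 to 1.62), both above the median ratio of all genes. Trdc reached 1.994 as a mean over cells, and Tcrg-C4 reached 1.996 without hashtag 7 of experiment 1. Both were lowest, but still above 1, without hashtag 7 of experiment 2. Trbc1 stood at 1.15 times (1.14 to 1.16), Trbc2 at 0.963 times (0.956 to 0.969), Tcrg-C2 at 0.954 times (0.939 to 0.969) and Tcrg-C1 at 0.834 times (0.823 to 0.845). The direction of Trbc2, Tcrg-C2 and Trbc1 is not firm, since the first pair passed 1 under TMM scaling and Trbc1 was at 0.999 without hashtag 4 of experiment 2. All genes had a median ratio of 0.899. Trac was 14.98 times as high (12.5 to 18.2) but its mean over the experiments was under 5 CPM. Without hashtag 4 of experiment 2 that ratio was 7.81, and without the cells with 5 or more Trac UMIs it was 3.43. Among partners, Cd3d (4.71 times), Cd3e (3.20), Cd3g (2.51), Dntt (2.42), Cd8a (30.9) and Id3 (3.79) passed 2-fold. Culture time, library and the mix of cultures cannot be told apart in this comparison.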

How the data were processed

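The authors deposited raw UMI counts per gene and cell for the mRNA library of each experiment and raw counts of 8 hashtag oligos per cell, without normalization. Per the submitters' processing notes Cell Ranger 3.0.0 and the mm10 (GRCm38) build were used. Per the labels' protocols the libraries were 10x Chromium v3. Gene positions are RefSeq's for GRCm38.

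Barcodes needed at least 500 genes, less than 10% of UMIs from mitochondrial genes, and a top hashtag with at least 50 counts and at least 3 times the second. UMIs were summed per hashtag and divided by the total. Intervals are exact 95% Poisson, Clopper-Pearson and conditional ratio intervals (scipy 1.17.1). A lowest hashtag with under 3 UMIs was set to 3 UMIs when genes were counted as spread, while the printed ratios use the UMIs as counted. Ratios within hashtags needed at least 10 UMIs. Clusters were made with scanpy 1.11.5 (Leiden at resolution 0.5 on 15 neighbours in 30 principal components of 2000 variable genes), and named from at least 3 markers among 50 leading genes of at least 50 CPM. The count of spread genes was also run on simulated counts with counting error only. Those counts hold no variation between cultures or cells, so the run does not cover such variation.

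Members and lists were chosen with earlier results of these data known. Beyond the members and lists, the text names the 5 most alike genes per member and the 5 segments with the most UMIs.
Alternatives were other hashtag calls (HTODemux of Seurat 5.3.0), cell filters, TMM scaling (edgeR 4.0.16), thinning, CPM minimums, clusterings and each hashtag left out. Barcodes with no called hashtag were left out. One gene of the signalling list is not reported here.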

Additional observations from a re-analysis of the deposited data

Results flagged for a closer look

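In experiment 2, single hashtags stood far from the other 7 in 4 of 36 values compared. A Tcrg-C1 UMI was found in 85.7% of the cells of hashtag 7, with the next hashtag at 54.8%, and a Tcrg-C2 UMI in 82.6%, with the next at 50.5%. Trac was at 38.8 CPM in hashtag 4, with the next at 10.2 CPM, and a Trac UMI was found in 10.3% of its cells, with the next at 3.96%. A gap of this size is passed by chance in about 1 of 20 groups of replicates, and hashtags are not replicates, so a gap can also be a difference in condition.

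Constant-gene signal was also present in data outside the comparisons. Trbc2 was at 707 CPM in the 535 barcodes of experiment 1 that had no called hashtag and at 565 CPM in the 1879 such barcodes of experiment 2. These barcodes were deeper than the kept cells, with medians of 43493 UMIs against 24753 in experiment 1 and 29199 against 26338 in experiment 2. Whether they are single cells was not tested. Tcrg-C3, the gamma constant gene that is not among the 7, had 277 UMIs in experiment 1 and 282 in experiment 2, and its near-identity with Tcrg-C1 and Tcrg-C2 leaves its own level uncertain.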

How the results depend on the processing

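The count of constant genes at least 2-fold apart between hashtags was 4 to 5 in experiment 1 and 5 to 6 in experiment 2 when 1 hashtag was left out, and 4 to 5 and 5 to 7 under the other settings. Between experiments the count was 0, and 1 both with cells thinned to 5000 UMIs and with a minimum of 1 CPM, the gene being Trac each time. Leaving out any 1 hashtag gave 0. In Il2ra-positive cells only, a setting chosen after the data were seen, the ratio of highest to lowest hashtag was 1.66 for Trbc1 and 1.97 for Trbc2 in experiment 1, and in experiment 2 it was 2.25 for Trbc1, 2.03 for Trbc2, 4.98 for Trdc, 3.55 for Tcrg-C2 and 5.57 for Tcrg-C4. The Trac ratio of experiment 2 was 178 with HTODemux and 21.7 without Trac-rich cells. Of class levels of at least 5 CPM, 15 of 69 moved by over 1.5 times at a Leiden resolution of 1.0 and 12 of 69 with 3000 variable genes. Ratios of experiment 2 over experiment 1 near 1 crossed it, for Trbc2 and Tcrg-C2 also under TMM scaling and without the other lineages. Trbc2 went from 0.963 to 1.02 and Tcrg-C2 from 0.954 to 1.05 with the stricter cell filter, the same pair reached 1.014 and 1.071 without hashtag 7 of experiment 1, and Trbc1 went from 1.15 to 0.999 without hashtag 4 of experiment 2. No paired analysis was possible because the hashtags carry no condition or replicate number. Depth limits Trac in experiment 1, which rests on 120 UMIs.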

Other observations

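Mast or basophil-like cells held Tcrg-C1 with little of the other gamma constant genes. In the 121 such cells of experiment 2 Tcrg-C1 was at 133 CPM, in 38.0% of cells, while Tcrg-C2 was at 10.55 CPM, Tcrg-C4 at 11.2 and Trbc2 at 43.9. In the 111 such cells of experiment 1 Tcrg-C1 was at 82.2 CPM, in 24.3% of cells, and Tcrg-C2 at 4.90. Granulocyte or monocyte-like cells had Tcrg-C1 at 5.23 and 22.6 CPM in experiments 1 and 2. B-lineage-like cells of experiment 2 (80 cells) had Tcrg-C2 at 75.6 CPM and Tcrg-C1 at 43.0, by level the reverse of the order over all cells. By share of cells the order was not reversed, with Tcrg-C1 in 42.5% and Tcrg-C2 in 37.5%. Of the 80 cells, 30 were in hashtag 7 and 25 in hashtag 8, where both genes were highest over all cells. The cause was not tested.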
